A study of Rattus norvegicus with 8 samples.

Results

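The mitochondrial ribosomal protein genes were followed in H9c2 cells, a myoblast line from embryonic rat heart, grown in space or on the ground with or without nanoceria. Nanoceria are cerium oxide nanoparticles, given at 100 µg/ml with a serum coating. Members were all genes whose symbol on the array was Mrpl or Mrps followed by a number and at most 1 letter. The rule found 66 of 15037 gene symbols, 42 named for the large subunit and 24 for the small subunit, and each had 1 probe set. Of the 75 RefSeq symbols that match the same rule, 9 were not the only symbol of any probe set here (Mrpl28, Mrpl33, Mrpl39, Mrpl43, Mrps10, Mrps21l, Mrps28, Mrps35 and Mrps6).

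The groups were nanoceria-treated cells in space (2 arrays), untreated cells in space (1 array), nanoceria-treated cells on ground (3 arrays) and untreated cells on ground (2 arrays). Cultures were seeded at 35000 cells/cm2. Those for flight travelled in a pouch preheated to 27 °C, reached the International Space Station at day 7, were kept at 37 °C and were fixed at day 10. The ground cultures were a later repetition that followed the temperatures logged in flight, so gravity regime and culture run cannot be told apart. All cultures shared a differentiation medium with 1% serum, and 30 ng of total RNA went onto each array. The labels do not tie the arrays of a group to separate cultures, so p-values measure only the spread between these samples, which may be technical.

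The mitochondrial ribosome, or mitoribosome, translates the few proteins that mitochondrial DNA encodes, nearly all of them core subunits of the respiratory chain and ATP synthase. Its ribosomal RNAs come from mitochondrial DNA, and all of its proteins are encoded in the nucleus, made in the cytosol and imported. Its small subunit reads the messenger RNA, and its large subunit joins the amino acids and feeds the new chain through an exit tunnel towards the inner membrane. The promoters of many such nuclear genes carry sites for NRF1, for the ETS factor GABP (also called NRF2) and for YY1.

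Promoter windows of 300 bases (250 before and 50 after the start) were present in RefSeq for 55 of the 66 members, on build GRCr8. The windows shown belong to the members with an entry whose p was smallest in each direction for space against ground (Mrpl47 and Mrps26) and for nanoceria on ground (Mrpl4 and Mrpl1). They were searched on both strands for CGCANGCG (the core of the NRF1 site), CCGGAAG (the ETS core bound by GABP) and AAGATGGC (YY1), and capitals mark each match. Mrpl47 and Mrpl4 are large-subunit homologues of bacterial proteins, Mrpl1 is the homologue of bacterial L1, and Mrps26 is a small-subunit protein specific to mitochondria.
Mrpl47, chr2:117447312-117447611, minus strand: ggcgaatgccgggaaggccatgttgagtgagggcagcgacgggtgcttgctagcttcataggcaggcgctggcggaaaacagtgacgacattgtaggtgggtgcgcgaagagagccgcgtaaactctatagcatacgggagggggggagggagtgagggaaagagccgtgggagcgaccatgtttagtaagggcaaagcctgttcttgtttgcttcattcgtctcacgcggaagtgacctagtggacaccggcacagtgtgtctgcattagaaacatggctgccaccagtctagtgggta
Mrps26, chr3:138222074-138222373, plus strand: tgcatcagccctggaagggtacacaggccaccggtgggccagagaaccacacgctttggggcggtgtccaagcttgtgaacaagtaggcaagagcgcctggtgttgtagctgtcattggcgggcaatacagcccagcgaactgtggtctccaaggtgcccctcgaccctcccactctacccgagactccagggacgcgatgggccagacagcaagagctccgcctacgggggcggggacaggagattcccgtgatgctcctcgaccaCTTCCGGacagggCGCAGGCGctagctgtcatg
Mrpl4, chr8:27815521-27815820, plus strand: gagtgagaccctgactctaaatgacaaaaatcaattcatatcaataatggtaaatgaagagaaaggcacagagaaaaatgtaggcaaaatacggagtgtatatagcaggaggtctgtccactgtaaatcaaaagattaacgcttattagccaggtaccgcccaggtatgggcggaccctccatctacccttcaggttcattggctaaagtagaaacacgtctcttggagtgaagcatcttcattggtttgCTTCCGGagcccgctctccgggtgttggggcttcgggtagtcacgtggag
Mrpl1, chr14:13663472-13663771, minus strand: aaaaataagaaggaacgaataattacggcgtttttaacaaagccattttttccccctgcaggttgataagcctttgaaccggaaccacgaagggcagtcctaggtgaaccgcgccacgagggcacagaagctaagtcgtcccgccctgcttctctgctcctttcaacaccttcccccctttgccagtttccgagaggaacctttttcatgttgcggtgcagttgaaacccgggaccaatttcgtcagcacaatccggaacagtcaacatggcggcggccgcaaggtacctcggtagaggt
The Mrps26 window held the ETS core at base 268 and the NRF1 core at base 281 of the window, after the start site at base 251. In the Mrpl4 window the ETS core began at base 251, the start site itself. The letters searched did not occur in the Mrpl47 and Mrpl1 windows.

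Over the 55 member promoters, 19 (34.5%) held the ETS core, against 9.22% of all 27457 RefSeq promoter windows and 13.2% of the 12435 windows of genes on this array. The YY1 core stood in 13 member promoters (23.6%), against 3.44% of all windows and 4.22% of those of array genes. The NRF1 core stood in 16 (29.1%), against 8.23% of all windows and 12.5% of those of array genes. Its letters were shortened after a first search, which limits this share and the share for any of the 3 motifs. At least 1 of the 3 was found in 36 member promoters (65.5%), against 18.2% of all windows and 25.5% of those of array genes, and no member window had 2 overlapping matches. The median GC content was 56.3% over member windows and 52.3% over all windows, and its part in these shares was not tested. A match describes the letters and is not evidence of binding.

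Array medians lay between 107.3 and 116.6 on the intensity scale, so overall brightness was close between arrays. The lowest median, 107.3, was that of the first nanoceria-treated ground array. The muscle genes Myod1 (6.97 to 8.19 log2 units over the 8 arrays), Myog (6.25 to 9.89), Acta1 (7.52 to 10.81) and Cdh15 (8.54 to 9.55) were bright, and 7 of 9 myoblast or myotube markers were brighter than at least 58.7% of probe sets, a rough guide because probe sets differ in brightness by design. Myf5 (4.01 to 4.75) and Chrna1 (4.41 to 6.90) were dim. Among markers of other cell types, Pecam1 (endothelium, 4.16 to 4.73) and Ptprc (leukocytes, 4.03 to 4.62) were dim, as were Cdh5 (4.21 to 5.05) and Kdr (5.85 to 6.24) of the endothelium. The leukocyte markers Cd14 (7.72 to 9.18, brighter than 69.2% of probe sets) and Cd68 (7.11 to 7.74, brighter than 56.6%) were not dim. Of the cardiomyocyte markers, Tnnt2 (9.18 to 11.43, brighter than 94.9%) was bright, Nkx2-5 read 6.95 to 7.41 (brighter than 55.2%), Nppa 5.71 to 7.07 and Ryr2 3.71 to 4.89. Of the fibroblast markers 3 of 4 were bright, with Col1a1 at 14.10 to 14.24, and Pdgfra read 5.17 to 5.92. The part of other cell types in the members' values was not tested. The array of untreated ground cells numbered 3 stood apart in 18 proliferation genes, whose mean lay at -1.73 log2 units from the genes' own means there and between 0.03 and 0.47 on the other arrays. In these bulk samples fewer cells of a type and less RNA per cell cannot be told apart.

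The members varied about as much as other probe sets. Their SD over the 8 arrays ran from 0.0858 to 0.659 log2 units with a median of 0.274, beside a median of 0.250 for all 23188 probe sets. A spread of more than 1 log2 unit between the highest and the lowest array was seen for 20 members (30.3%), against 30.6% of all probe sets. The members were brighter, with a median over genes of the mean log2 intensity of 9.29, against 6.82 for all probe sets. The part of brightness in this and the later comparisons with all probe sets was not tested.

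The main pattern among the members was 1 array. On the first nanoceria-treated ground array the members averaged 0.39 log2 units above their own means, and 61 of 66 lay above their mean there. The members averaged -0.02 and -0.02 in nanoceria-treated space cells and -0.10 in untreated space cells. The other two nanoceria-treated ground arrays stood at -0.13 and -0.13, and the untreated ground arrays at -0.06 and 0.07. Thus the 3 ground nanoceria arrays had an SD of 0.300 for this mean (n = 3), against 0.0942 in untreated ground cells (n = 2), and the other two arrays of the high array's own group had the lowest means of all 8. The plot of members by array shows this shift across the whole cloud of genes rather than in a few of them.

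**Figure D1:**
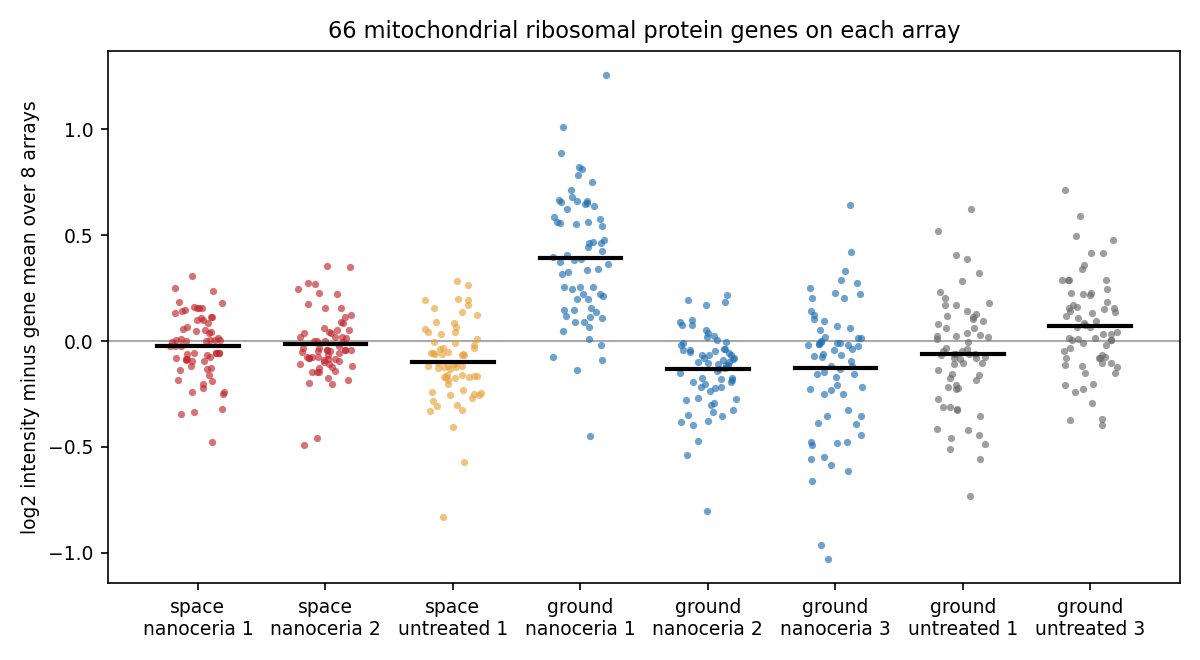
Log2 intensity of each of the 66 members minus its own mean over the 8 arrays (vertical axis, log2 units), by array (horizontal axis); points are genes, and black bars are the mean over members. The first nanoceria-treated ground array stands at 0.39, and the other arrays lie between -0.13 and 0.07.

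The first nanoceria-treated ground array held the highest value of 44 members (66.7%), against 16.3% of all probe sets, and the lowest value of 0, against 16.6%. Lowest values fell most often on the other two arrays of the same group, with 18 members on the third (27.3%, against 12.0% of all probe sets) and 16 on the second (24.2%, against 8.01%). Another 12 members were lowest on the untreated space array (18.2%, against 14.2%). The first array exceeded both other arrays of its group in 58 members (87.9%), against 30.2% of all probe sets. The excess over the mean of those 2 arrays had a median of 0.55 log2 units over members (range -0.20 to 1.77), and of -0.05 over all probe sets.

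The shift was present in genes named for either subunit and in proteins old and new to the ribosome. The median excess was 0.49 over the 42 genes named for the large subunit (Mrpl) and 0.59 over the 24 named for the small subunit (Mrps). It was 0.60 over 38 members with a bacterial homologue and 0.47 over 26 members specific to mitochondria. By position, it was 0.41 over 6 members assigned to the region of the exit tunnel (Mrpl17, Mrpl22, Mrpl23, Mrpl44, Mrpl45 and Mrpl47). It was 0.51 over the 3 members of the L7/L12 stalk, which recruits translation factors, and 0.64 over 9 members of the central protuberance.

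Of the 5 members with the largest SD, 4 (Mrpl22, Mrps34, Mrps9 and Mrps25) had their highest value on the first nanoceria-treated ground array. That array also enters the SD, and 44 of all 66 members (66.7%) were highest there. Mrpl22, the homologue of the exit tunnel protein L22, read 7.76 and 8.01 in nanoceria-treated space cells, 8.04 in untreated space cells, 9.27, 7.94 and 7.04 in nanoceria-treated ground cells, and 7.52 and 8.48 in untreated ground cells, in log2 intensity as for all genes here. Its 3 ground nanoceria values spanned those of every other array. Mrps25, a small-subunit protein specific to mitochondria, read 8.36 and 8.31 in nanoceria-treated space cells, 8.05 in untreated space cells, 9.27, 8.33 and 7.90 in nanoceria-treated ground cells, and 8.03 and 8.80 in untreated ground cells. Mrps9, the homologue of bacterial S9, read 6.39 and 6.74 in nanoceria-treated space cells, 7.13 in untreated space cells, 7.62, 6.80 and 6.25 in nanoceria-treated ground cells, and 6.54 and 7.46 in untreated ground cells. Both were highest on the first ground nanoceria array and lowest on the third.

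Mrps18c, one of the mammalian copies of bacterial S18, read 10.08 and 10.48 in nanoceria-treated space cells, 10.33 in untreated space cells, 10.52, 9.67 and 9.11 in nanoceria-treated ground cells, and 10.54 and 10.36 in untreated ground cells. Here the first ground nanoceria array lay with the untreated ones, and the second and the third were the lowest of all. Mrps34, a small-subunit protein specific to mitochondria, completed the 5 and is described with the comparisons. At the other end, Mrpl3 (SD 0.0858), the homologue of L3, read 9.42 and 9.37 in nanoceria-treated space cells, 9.28 in untreated space cells, 9.55, 9.41 and 9.46 in nanoceria-treated ground cells, and 9.33 and 9.48 in untreated ground cells. Mrpl16 and Mrpl36, homologues of L16 and L36, had SDs of 0.107 and 0.124. Mrps2 and Mrps24 were the only members below the mean of the other two arrays on the first ground nanoceria array, at -0.20 and -0.06.

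The effect of nanoceria on ground was addressed with 3 treated against 2 untreated arrays, and differences are given in log2 units with the standard error (SE) of the limma fit. No member passed an adjusted p of 0.05 (0 of 66; 0.00% of all probe sets passed). Before adjustment, 3 members lay higher and 5 lower at p under 0.05, which are 4.55% and 7.58% of members beside 4.42% and 6.57% of all probe sets. In all, 40 members lay higher and 26 lower in nanoceria-treated cells, with a median difference of 0.07 log2 units, against 0.04 and 55.5% higher over all probe sets. The groups did not overlap in 8 members on the higher side and 5 on the lower side (12.1% and 7.58%, against 14.3% and 12.0% of all probe sets). For groups without overlap, neither direction exceeded its background.

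On the lower side, Mrpl1, the homologue of the movable L1 stalk protein that guides spent tRNA out in bacteria, had the smallest p of any member. It read 8.98 and 8.97 in nanoceria-treated space cells, 9.14 in untreated space cells, 8.40, 8.51 and 8.26 in nanoceria-treated ground cells, and 8.98 and 9.56 in untreated ground cells. The 3 treated ground arrays were the lowest of all 8 and did not overlap the untreated ones, and the first of them was not high. The difference was -0.88 ± 0.21 (SE; limma adjusted p = 0.239). Without the first untreated ground array it was -1.17, with an adjusted p of 0.064, in a range of 0.064 to 0.514 over the alternatives, and without the third untreated ground array it was -0.59. Without the first treated ground array it stayed at -0.88. The Mrpl1 probe set is one of those that the array design did not place on its genome, and whether its signal is specific to Mrpl1 was not tested.

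Mrps22, a small-subunit protein specific to mitochondria, read 9.50 and 9.37 in nanoceria-treated space cells, 9.59 in untreated space cells, 9.25, 9.24 and 9.00 in nanoceria-treated ground cells, and 9.51 and 9.68 in untreated ground cells. Again the treated ground arrays lay below all others, and the difference was -0.43 ± 0.16 (SE; limma adjusted p = 0.412). Mrpl42, a large-subunit protein specific to mitochondria, read 11.31 and 10.99 in nanoceria-treated space cells, 11.04 in untreated space cells, 10.99, 10.72 and 10.82 in nanoceria-treated ground cells, and 11.59 and 11.11 in untreated ground cells. The treated ground arrays lay below both untreated ground arrays, with a difference of -0.51 ± 0.21 (SE; limma adjusted p = 0.436). Mrpl47, the homologue of L29 beside the exit tunnel, read 8.17 and 8.19 in nanoceria-treated space cells, 8.09 in untreated space cells, 8.01, 7.11 and 7.48 in nanoceria-treated ground cells, and 8.09 and 8.21 in untreated ground cells. Its first treated ground array came close to the untreated level while the second and the third lay well below it, and the difference was -0.62 ± 0.26 (SE; limma adjusted p = 0.45), or -0.85 without that first array. Mrpl32, a homologue of L32 whose trimming by a mitochondrial protease gates assembly in yeast and mouse, was the fifth member whose groups did not overlap on this side, at -0.54 ± 0.23 (SE; limma adjusted p = 0.45).

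On the higher side, Mrps12, the homologue of the decoding-centre protein S12, read 9.41 and 9.35 in nanoceria-treated space cells, 9.32 in untreated space cells, 10.28, 9.67 and 9.60 in nanoceria-treated ground cells, and 9.08 and 9.25 in untreated ground cells. Treated ground arrays were the 3 highest of all 8, and the first stood alone above the rest. The difference was 0.68 ± 0.23 (SE; limma adjusted p = 0.368), or 0.47 without that first array. Mrpl4, whose window is printed above, read 7.87 and 7.86 in nanoceria-treated space cells, 7.91 in untreated space cells, 8.89, 8.17 and 8.27 in nanoceria-treated ground cells, and 7.61 and 7.96 in untreated ground cells. It too was highest on the 3 treated ground arrays, with a difference of 0.66 ± 0.25 (SE; limma adjusted p = 0.411), or 0.43 without the first.

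Mrps18a, another S18 copy that sits in the large subunit of the human mitoribosome, read 9.18 and 9.23 in nanoceria-treated space cells, 9.04 in untreated space cells, 9.99, 9.42 and 9.56 in nanoceria-treated ground cells, and 9.11 and 9.19 in untreated ground cells. The treated ground arrays were the 3 highest, and the difference was 0.51 ± 0.20 (SE; limma adjusted p = 0.424). Mrps34 read 7.79 and 8.02 in nanoceria-treated space cells, 7.31 in untreated space cells, 9.15, 8.36 and 8.43 in nanoceria-treated ground cells, and 7.70 and 8.36 in untreated ground cells. The treated and untreated ground arrays overlapped, since ground untreated 3 lay just within the treated values, and the difference was 0.62 ± 0.30 (SE; limma adjusted p = 0.5). The other members without overlap on the higher side were Mrpl12 (0.47 ± 0.27), the L7/L12 stalk protein itself, Mrpl14 (0.42 ± 0.23), Mrpl20 (0.27 ± 0.19), Mrpl54 (0.16 ± 0.17) and Mrps26 (0.24 ± 0.17, all ± SE), with adjusted p from 0.538 to 0.778 in limma. The panels for the members with the smallest p show the 4 lower and the 4 higher genes side by side.

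**Figure D2:**
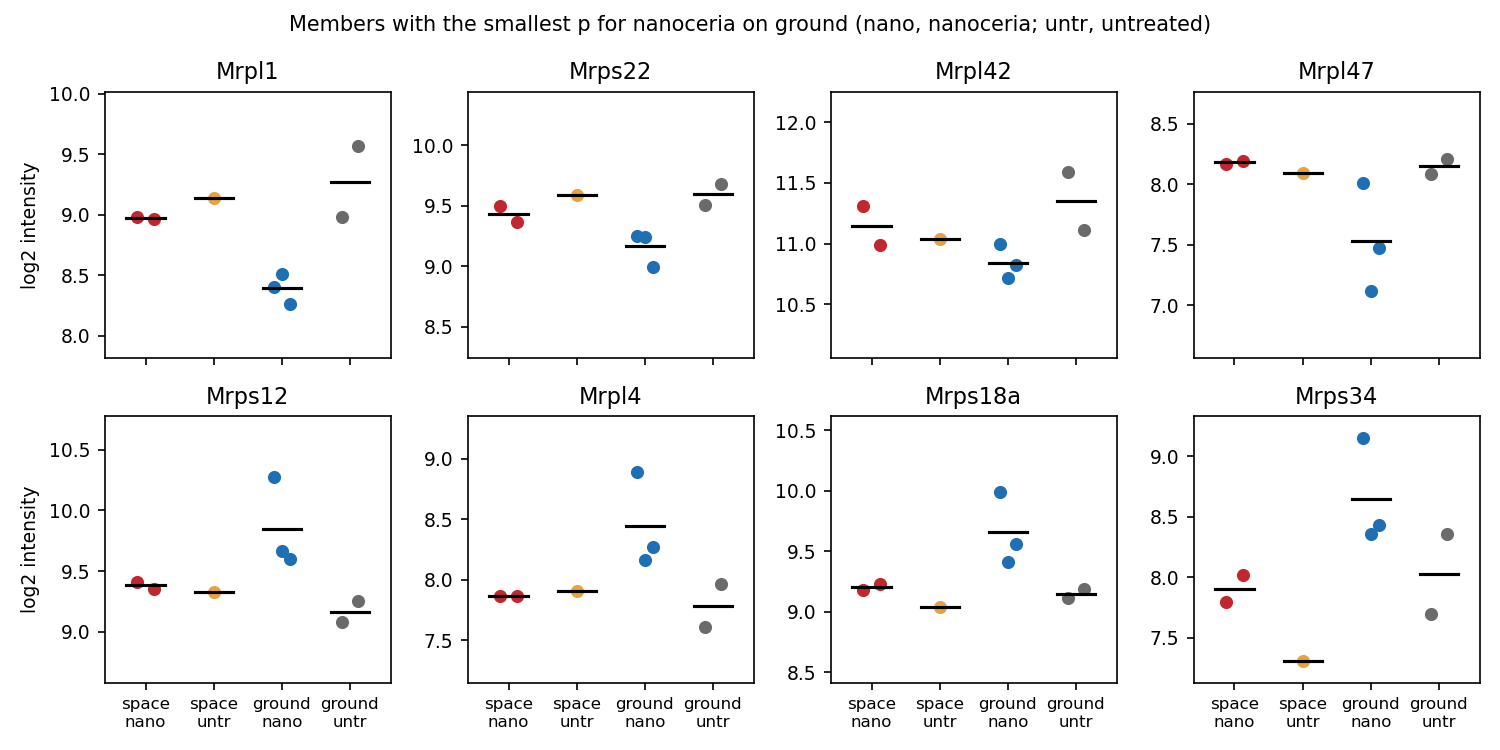
Log2 intensity of the 4 members lower (top) and the 4 higher (bottom) with the smallest p for nanoceria against untreated on ground; points are arrays, bars are group means, the vertical axes differ, and nano and untr stand for nanoceria-treated and untreated. Mrpl1 lies at 8.26 to 8.51 on the 3 treated ground arrays, and at 8.97 to 9.56 on the other arrays.

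Without the first nanoceria-treated ground array, the median difference over members turned to -0.12, with 24 members higher and 42 lower, while the median over all probe sets was 0.04. In all, 16 members changed sign. Non-overlapping groups then numbered 8 of 66 members on the higher side and 23 of 66 on the lower, against 21.5% and 15.6% of all probe sets. The member share thus lay below its background on the higher side and above it on the lower. Without the first untreated ground array the median was -0.01, with 32 higher and 34 lower, and 167 of all probe sets but 0 members had an adjusted p under 0.05. Without the third untreated ground array it was 0.11, with 39 higher and 27 lower. Of the 18 proliferation genes, on which that array stood apart, 16 lay higher in nanoceria-treated ground cells with a median of 1.03, and their part in the members' values was not tested. So the balance of directions among the members on ground rested on single arrays.

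Space against ground within nanoceria-treated cells compared 2 with 3 arrays and shares the 3 ground nanoceria arrays with the comparison above. No member passed an adjusted p of 0.05 (0 of 66; 0.00% of all probe sets passed). Higher values in space were found for 22 members and lower ones for 44, with a median difference of -0.09 log2 units, against -0.05 and 41.4% higher over all probe sets. At unadjusted p under 0.05, 2 lay higher and 1 lower (3.03% and 1.52% of members, against 5.02% and 3.39% of all probe sets). The groups did not overlap in 3 members on the higher side and 9 on the lower (4.55% and 13.6%, against 13.6% and 17.6%).

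Higher in space among treated cells were Mrpl1 (0.58 ± 0.21), Mrpl47 (0.65 ± 0.26) and Mrps22 (0.27 ± 0.16, all ± SE), whose values are given above and whose groups did not overlap. Their limma adjusted p lay between 0.520 and 0.689. On the lower side Mrps34 had the largest difference, -0.74 ± 0.30 (SE; limma adjusted p = 0.583). Mrpl4 stood at -0.58 ± 0.25, Mrps12 at -0.47 ± 0.23 and Mrps18a at -0.45 ± 0.20 (± SE), with limma adjusted p from 0.594 to 0.646. Without the first ground nanoceria array the median over members turned to 0.10, with 41 higher and 25 lower and 19 members changed in sign. Groups without overlap numbered 24 of 66 on the higher side and 9 of 66 on the lower, against 18% and 25.8% of all probe sets. The member share thus lay above its background on the higher side and below it on the lower.

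**Figure D3:**
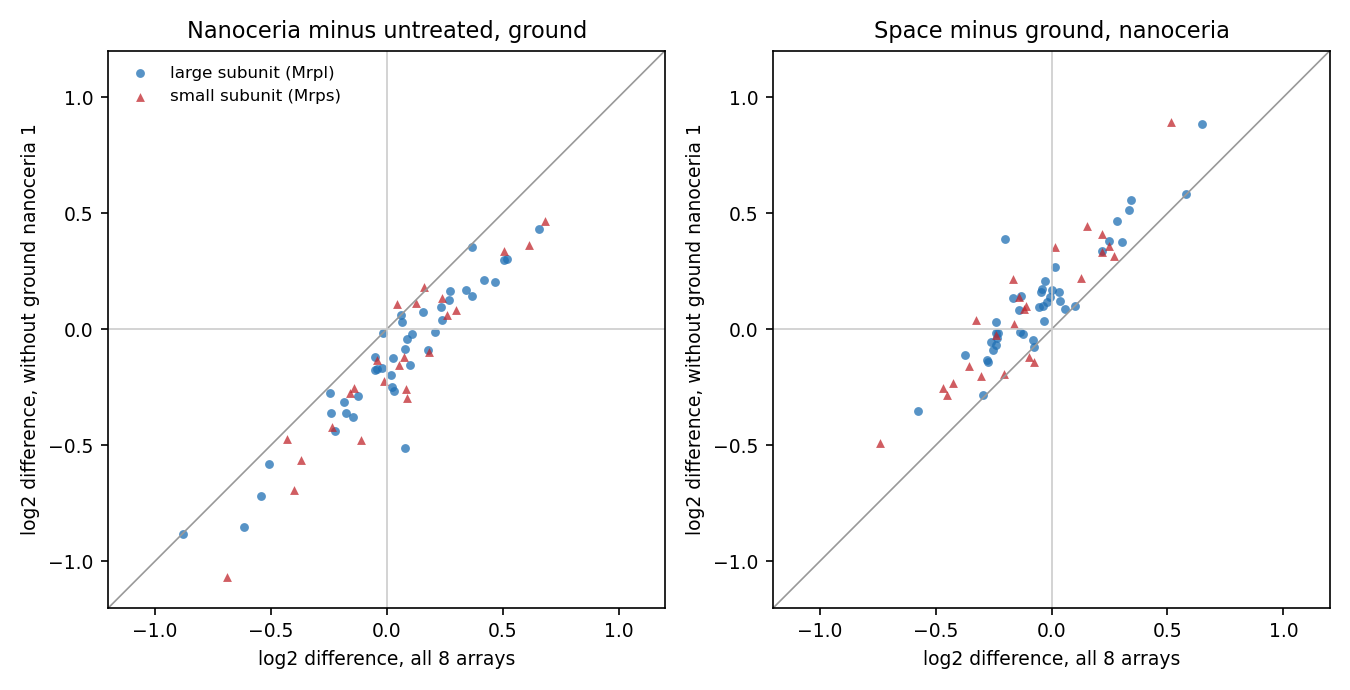
Log2 difference of each member with all 8 arrays (horizontal axis) and without the first nanoceria-treated ground array (vertical axis), for nanoceria minus untreated on ground (left) and space minus ground in treated cells (right). Circles are genes named Mrpl and triangles genes named Mrps, and the diagonal marks equal values. The median over members is 0.07 with and -0.12 without that array on the left, and -0.09 with and 0.10 without it on the right.

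Space against ground over both treatments set 3 arrays against 5, with treatment as a covariate. No member passed an adjusted p of 0.05 (0 of 66; 0.00% of all probe sets passed). Lower values in space were found for 46 members and higher ones for 20, with a median difference of -0.10 log2 units, against -0.04 and 41.3% higher over all probe sets. The median was -0.09 over Mrpl and -0.16 over Mrps genes, and turned to 0.01 over all members without the first nanoceria-treated ground array. All groups overlapped on the higher side (0 members, against 1.97% of all probe sets), and 3 members did not overlap on the lower side (4.55%, against 3.14%).

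Those 3 were Mrps26, Mrps7 and Mrpl35. Mrps26 read 8.17 and 8.21 in nanoceria-treated space cells, 8.05 in untreated space cells, 8.70, 8.49 and 8.30 in nanoceria-treated ground cells, and 8.24 and 8.27 in untreated ground cells, so each space array lay just below every ground array. Its difference was -0.27 ± 0.13 (SE; limma adjusted p = 0.549). Mrps7, the homologue of bacterial S7, read 7.84 and 7.99 in nanoceria-treated space cells, 8.00 in untreated space cells, 8.73, 8.13 and 8.16 in nanoceria-treated ground cells, and 8.07 and 8.46 in untreated ground cells, with ground nanoceria 1 and ground untreated 3 above the rest. It lay at -0.37 ± 0.18 (SE; limma adjusted p = 0.555), and Mrpl35, the homologue of L35, at -0.23 ± 0.14 (SE; limma adjusted p = 0.622). Mrps34 had the smallest p, -0.73 ± 0.22 (SE; limma adjusted p = 0.399), and was the single member under an unadjusted p of 0.05 (1 lower, against 4.26% of all probe sets, and 0 higher, against 5.30%). Its lowest value was the untreated space array, and its space and ground values overlapped.

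Higher in space by the smallest p were Mrpl47 (0.40 ± 0.22), Mrpl1 (0.33 ± 0.19), Mrpl45 (0.29 ± 0.18) and Mrps22 (0.17 ± 0.13, all ± SE). Mrpl45, which ties the large subunit to the inner membrane, read 9.54 and 9.89 in nanoceria-treated space cells, 9.73 in untreated space cells, 9.74, 9.61 and 9.06 in nanoceria-treated ground cells, and 9.47 and 9.25 in untreated ground cells. Its values overlapped, and limma adjusted p for these 4 lay between 0.603 and 0.694.

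Nanoceria against untreated over both regimes set 5 arrays against 3, with regime as a covariate. No member passed an adjusted p of 0.05 (0 of 66; 0.00% of all probe sets passed). Higher values in treated cells were found for 44 members and lower ones for 22, with a median of 0.06 log2 units, against 0.03 and 56.0% higher over all probe sets. At unadjusted p under 0.05, 4 lay higher and 2 lower (6.06% and 3.03% of members, against 3.77% and 5.86% of all probe sets). Groups without overlap were Mrpl14 and Mrps12 on the higher side (2 members, against 2.47% of all probe sets) and Mrps22 on the lower (1 member, against 2.28%). Without the first ground nanoceria array the median turned to -0.05.

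The smallest p on the higher side belonged to Mrps34 (0.61 ± 0.22, SE; limma adjusted p = 0.465) and Mrpl10 (0.43 ± 0.17, SE; limma adjusted p = 0.482). Mrpl10, which anchors the L7/L12 stalk, read 8.80 and 8.86 in nanoceria-treated space cells, 8.25 in untreated space cells, 9.41, 8.72 and 9.07 in nanoceria-treated ground cells, and 8.61 and 8.83 in untreated ground cells. Its groups overlapped, and the untreated space array was the lowest of all. Mrps18a lay at 0.38 ± 0.16 and Mrps12 at 0.46 ± 0.20 (± SE). On the lower side Mrpl1 stood at -0.62 ± 0.19 (SE; limma adjusted p = 0.429), and Mrps22, Mrpl32 and Mrpl47 lay between -0.37 and -0.33.

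Whether the nanoceria difference itself differed between space and ground rests on the single untreated space array, whose spread was taken to equal that of the other groups. No member passed an adjusted p of 0.05 (0 of 66; 0.00% of all probe sets passed), and 0 members had an unadjusted p under 0.05, against 1.44% of all probe sets on the higher side and 0.906% on the lower. Differences of differences above 0 were found for 37 members and below 0 for 29, and 48.7% of all probe sets lay above 0. With equal array medians the split turned to 32 above and 34 below 0. The value was 0.72 ± 0.34 for Mrpl1, 0.62 ± 0.34 for Mrpl42, -0.70 ± 0.41 for Mrpl4 and -0.63 ± 0.39 for Mrps12 (± SE; limma adjusted p = 1 for each).

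A further 5 mitoribosome proteins carry other names, and all were measured. On ground, Dap3, a GTP-binding small-subunit protein, lay higher by 0.46 ± 0.19 and Ptcd3, a small-subunit pentatricopeptide protein, stood at -1.02 ± 0.33 in nanoceria-treated against untreated cells (± SE; limma adjusted p of 0.444 and 0.353). Neither gene's groups overlapped, which is 20.0% of the 5 on each side, against 14.3% and 12.0% of all probe sets. Ptcd3 read 7.35, 8.08 and 7.04 in treated and 8.63 and 8.39 in untreated ground cells, and Dap3 read 8.63, 8.55 and 9.04 in treated and 8.36 and 8.21 in untreated ground cells. Gadd45gip1, Chchd1 and Aurkaip1 lay at 0.24 ± 0.19, -0.24 ± 0.24 and 0.11 ± 0.19 (± SE), all with overlap.

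The factors that work with the mitoribosome were counted in the same fit, and none passed an adjusted p of 0.05. Over all probe sets, 55.5% lay higher in nanoceria-treated ground cells, with a median of 0.04. How far the counts for these lists rest on single arrays was not tested. Of 14 translation factors measured, 4 lay higher (28.6%) and 10 lower in nanoceria-treated ground cells, with a median of -0.12. Their groups did not overlap in 7.14% on the higher side and 28.6% on the lower, against 14.3% and 12.0% of all probe sets. Mtif2, the initiation factor that brings the first tRNA to the mitoribosome, read 6.41 and 6.06 in nanoceria-treated space cells, 6.67 in untreated space cells, 5.20, 5.12 and 5.34 in nanoceria-treated ground cells, and 6.34 and 6.70 in untreated ground cells. Its treated ground values were the lowest of all 8 arrays, at a difference of -1.30 ± 0.19 (SE; limma adjusted p = 0.128). Guf1, a homologue of the bacterial elongation factor LepA, differed by -1.35 ± 0.37 (SE; limma adjusted p = 0.285), without overlap. Tufm, the factor that delivers tRNA during elongation, lay on the other side at 0.25 ± 0.16 (SE; limma adjusted p = 0.603).

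Among 24 assembly factors, 13 lay higher (54.2%, against 55.5% of all probe sets) and 11 lower on ground with nanoceria, and the median was 0.01. Their groups did not overlap in 8.33% on the higher side and 4.17% on the lower, against 14.3% and 12.0% of all probe sets. Mterf3, needed for mitoribosome assembly in mouse, stood at -0.85 ± 0.25 (SE; limma adjusted p = 0.305), while Oxa1l, the inner-membrane insertase that receives new chains, stood at 0.48 ± 0.20 (SE; limma adjusted p = 0.45), both without overlap. Nsun4, a methyltransferase of the small ribosomal RNA, read 6.35 and 6.34 in treated and 6.64 in untreated space cells, below its 7.00, 6.65 and 7.00 in treated and 6.70 and 7.01 in untreated ground cells. Its space difference was -0.42 ± 0.15 (SE; limma adjusted p = 0.441). The 13 aminoacyl-tRNA synthetases measured had 8 higher (61.5%) and 5 lower on ground with nanoceria and a median of 0.10. Of 18 regulators, 5 lay higher (27.8%) and 13 lower. Among the lower were Tfb2m, a factor of mitochondrial transcription, at -0.86 ± 0.19 and the coactivator Ppargc1a at -0.62 ± 0.22 (± SE; limma adjusted p of 0.219 and 0.394), both without overlap. Groups did not overlap in 16.7% of the regulators on each side, near the 14.3% and 12.0% of all probe sets.

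The high first ground nanoceria array was shared with some of these lists and not with others. Its excess over the other two arrays of the group had a median of 0.38 over 72 respiratory chain subunits (above both in 66), 0.21 over 76 cytosolic ribosomal proteins (66), 0.25 over 24 assembly factors (16), 0.17 over 18 proliferation genes (8), 0.06 over 18 regulators (5), 0.04 over 13 synthetases (6) and -0.03 over 14 translation factors (5). The members' 0.55 was the highest of these medians, with no test of the difference. Respiratory chain subunits were above both arrays more often than members (91.7% against 87.9%), and 65.3% of them were highest on that array, against 66.7% of members. The 5 mitoribosome proteins with other names had a median excess of 0.36 (above both in 3). For 3 further Mrpl genes written in lower case, described in the closing section, it was 0.87. The third untreated ground array stood highest for translation and assembly factors, at 0.26 and 0.24 from the genes' own means, and also for synthetases at 0.19 and regulators at 0.13, and the part of its low proliferation level in this was not tested. The plot of lists by array sets these means side by side.

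**Figure D4:**
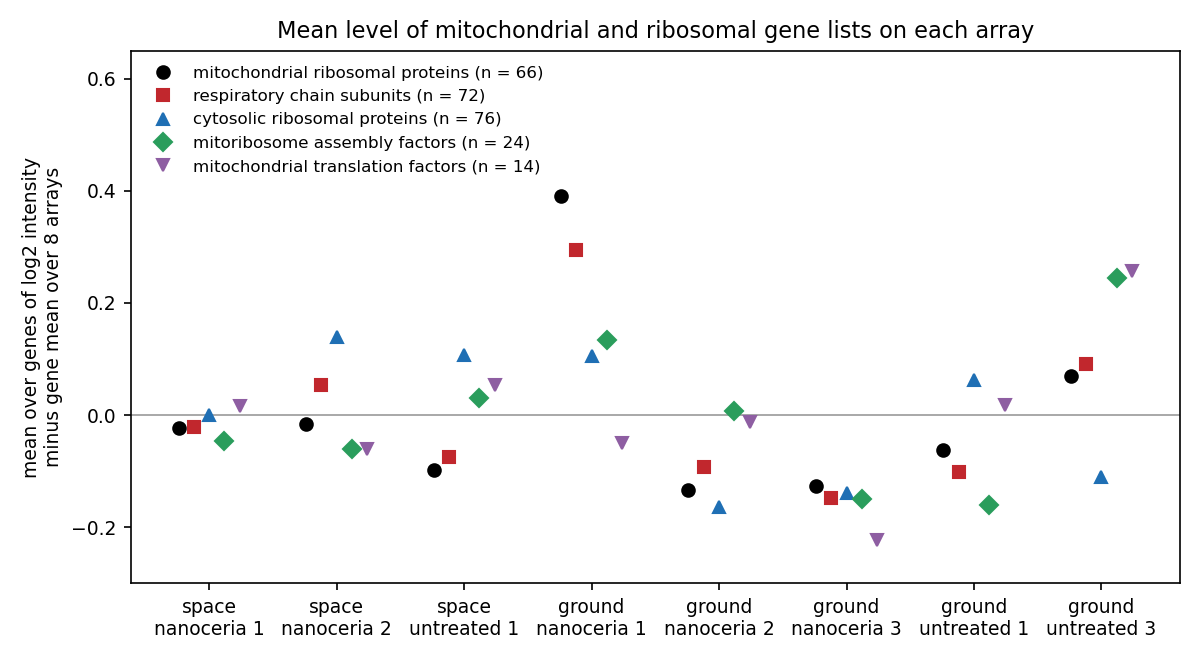
Mean over the genes of 5 lists of log2 intensity minus each gene's own mean over the 8 arrays (vertical axis, log2 units), by array (horizontal axis). On the first nanoceria-treated ground array the mitochondrial ribosomal proteins stand at 0.39, the respiratory chain subunits at 0.29 and the translation factors at -0.05.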

How the data were processed

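Each of the 8 RNA samples went onto its own rat Clariom S Pico array. Linear intensity values, 1 for each probe set on each array, were deposited by the authors. RMA is the single tool in the submitters' processing notes, and its software and settings are not given in the sources used here. No background or detection measure was used. Intensity ran from 8.63 to 19506, and log2 was taken without a pseudocount. Symbols came from the platform annotation (15049 of 23188 probe sets had 1 symbol, and the other 8139, with no symbol or several, were not used for naming). All 66 members matched RefSeq by gene identifier.

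Differences were fitted over all probe sets with limma 3.58.1 in R 4.3.3, with Benjamini-Hochberg adjustment at 0.05. Regime and treatment were additive terms (5 residual degrees of freedom) for the comparisons over both treatments or both regimes, and 1 mean per group (4 degrees) served elsewhere. The fits were also run on simulated data with independent noise for each probe set. Such data hold no shift shared by many genes on 1 array, so that run cannot address the high array. Members are named by rule: the 4 smallest p values on each side of a comparison (2 for the interaction), the 5 largest SDs and the 3 smallest. For the other lists the rule allowed the 2 smallest p values on each side for nanoceria on ground and for space against ground, and only some of these are given. Other genes, among them Aurkaip1 and further members whose groups did not overlap, were named after their values were seen. The members and lists were chosen with earlier results of these data known. The 3 motifs were chosen from textbook knowledge, and the NRF1 letters were shortened after a first search. Alternatives were cyclic loess, equal array medians, a fit on the brighter 66.7% of probe sets, a trended robust variance, array weights, a replicate block, contrasts of group means and leaving out arrays. The number of arrays limits the precision.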

Additional observations from a re-analysis of the deposited data

How the results depend on the processing

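No member passed an adjusted p of 0.05 in any comparison under any alternative run, and all medians over members moved by less than 0.197 log2 units, the pooled SD between replicates of a group. That SD takes in the first nanoceria-treated ground array, where the median over members was 0.38, against -0.11 and -0.07 in the rest of its group. The high array thus widened the limit, and staying under it does not show that the medians were stable. Leaving out 1 array at a time, the medians ran from -0.148 to 0.011 for space against ground, from -0.045 to 0.107 for nanoceria against untreated, from -0.122 to 0.145 for nanoceria on ground, from -0.191 to 0.099 for space in treated cells and from -0.062 to 0.18 for the interaction, so the signs were not stable. Leaving out the first nanoceria-treated ground array turned the first 4 signs. The interaction's sign turned without the second or the third array of that group, without the third untreated ground array, and with equal array medians. Leaving out that array and the third untreated ground array together, a choice made after seeing the data, gave 0.06, -0.0004, -0.04, 0.10 and 0.13 in the same order. With cyclic loess the medians were -0.07, 0.02, 0.03, -0.05 and 0.06, and with equal array medians -0.11, 0.08, 0.11, -0.12 and -0.01. Arrays with the same replicate number had correlations of -0.348 to -0.013 in their deviations from the group means. Such deviations cancel within each small group, so these values are tied to each other. They cannot show whether replicate numbers pair the samples. The replicate block gave medians of -0.11, 0.11, 0.09, -0.10 and 0.08 with 0 members called. Array weights called 4 of all probe sets for space against ground, and 0 members. The 552 values recomputed for single named members kept their sign. Those members were named for their small p, which favours a stable sign. Some refits also cannot change a difference, such as nanoceria on ground when a space array is left out. The count of 552 therefore does not show that single members were stable. Of the recomputed counts of members in 1 direction, 82 moved by over 1.5 times and 222 did not. A dimmer probe set per gene was not run, since no member has a second one, and the interaction cannot be formed without the untreated space array. The cause of the high array was not tested.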

Other observations

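The annotation writes 3 further large-subunit genes in lower case, which the case-sensitive rule left out. Mrpl11, a homologue of L11 at the base of the stalk, is written mrpl11 and read 8.73 and 8.37 log2 units in nanoceria-treated space cells, 8.42 in untreated space cells, 9.45, 8.58 and 8.57 in nanoceria-treated ground cells, and 8.74 and 9.05 in untreated ground cells. The genes written mrpl24 and mrpl9 were likewise highest on the first nanoceria-treated ground array, at 9.65 and 8.99. The excess of that array over the mean of the other two of its group had a median of 0.87 over these 3 genes.

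Of the 55 members with a promoter window, 18 (32.7%) had another gene starting in the opposite direction within 1000 bases, against 10.4% of all 27457 windows. The share among genes on this array was not computed and may differ from that over all windows. One such pair holds a member of each subunit, Mrpl46 and Mrps11, whose starts lie 234 bases apart. Mrpl46 read 8.98, 8.20 and 7.96 in nanoceria-treated ground cells and 8.16 and 8.55 in untreated ground cells, and Mrps11 read 9.90, 9.16 and 9.36 in nanoceria-treated ground cells and 9.30 and 9.05 in untreated ground cells. Both were highest on the first treated array. Mrpl47 faces Ndufb5, a subunit of respiratory complex I, at 244 bases, Mrpl32 faces the proteasome gene Psma2 at 210 bases, and Mrpl49 faces Fau, which encodes a cytosolic ribosomal protein, at 186 bases.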
